A study of Mus musculus with 17 samples.

Results

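Cholesterol made inside the brain supplies nearly all of the cholesterol of that organ, since the blood-brain barrier holds back lipoproteins of the plasma. Its synthesis starts from acetyl-CoA, passes through mevalonate and isoprenoid diphosphates to squalene, and ends with a series of changes to the sterol ring. When membrane cholesterol falls, the transcription factor SREBP2 is released from the endoplasmic reticulum and raises transcription of the enzymes, and when cholesterol is plentiful the Insig proteins hold it back. Neurons remove surplus cholesterol as an oxysterol made by the enzyme Cyp46a1.

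The genes described here are 8 of the 56953 in the count table, chosen by symbol for their place in this pathway. Hmgcs1 and Idi1 are enzymes of the mevalonate steps, Fdft1, Sqle and Dhcr7 belong to the sterol branch, Srebf2 and Insig1 regulate the pathway, and Cyp46a1 removes its product. All 8 had enough counts for a test.

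They were measured by bulk sequencing of polyA RNA from the prefrontal cortex of mice aged 8 months, in 5 WT, 6 PS19 and 6 CgA-KO/PS19 libraries. All groups had the B6C3F1/J background and ate regular chow. PS19 mice, labelled hTau, are heterozygous for a transgene of human Tau (P301S mutant) driven by the Prnp promoter. CgA-KO/PS19 mice, labelled CgA-KO/hTau, carry the same transgene and lack chromogranin A (CgA, gene Chga) in every tissue from conception, a deletion made with Cre-loxP on another background and then backcrossed. CgA-KO mice without the Tau transgene were not analysed here, so the deletion was seen only together with Tau. Mice of both sexes were used, and the sex behind each library is not labelled.

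Chga had 0 CPM (counts set to a common library size, with library composition allowed for) in every CgA-KO/PS19 library and 152 to 180 CPM in the others. Prnp, whose promoter drives the transgene, averaged 833 CPM in WT, 2119 CPM in PS19 and 1561 CPM in CgA-KO/PS19. The WT libraries held total counts of 8838334 to 184389431. Those of PS19 held 53271515 to 227651681 and those of CgA-KO/PS19 held 37657767 to 184877001, and the median was highest in PS19. These are totals of counts derived from read coverage, not numbers of fragments. A count of 3 was the most frequent count above 0 in 13 of 17 libraries, and a count of 6 was more frequent than 5 or 7 in all 17. The totals are therefore read only as relative depth. PS19 replicates 4 to 6 lay closest together of all libraries, with a robust SD of the log2 ratio of 0.0523 to 0.0607 over 3761 well-counted genes, and CgA-KO/PS19 replicates 1 and 3 came next at 0.0980. Replicates 1 to 3 of all 3 genotypes had the Y-linked gene Ddx3y above 1 CPM, and the remaining 8 libraries had at most 0.0582 CPM. All 8 neuron markers were detected in every library. All 12 striatum markers summed to 1117 to 3234 CPM in WT, 162 to 218 CPM in PS19 and 197 to 1806 CPM in CgA-KO/PS19. The sums also differed between libraries of the same genotype. They were 3205 and 3234 CPM in WT replicates 5 and 3 and 1117 to 1170 CPM in the other WT libraries. In CgA-KO/PS19 they were 1788 and 1806 CPM in replicates 1 and 3 and 426 CPM in replicate 2. Replicates 4 to 6 had 197 to 224 CPM. The 6 choroid plexus markers summed to 1094 CPM in WT replicate 5 and 13.0 to 18.8 CPM in the other WT libraries. Between genotypes, genotype and dissection cannot be told apart in these sums. All 12 oligodendrocyte markers summed to 2985 to 3381 CPM in CgA-KO/PS19 replicates 1 to 3, against 1368 to 2153 CPM in the other 14 libraries.

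Start regions are shown because the pathway is known for control at the promoter. RefSeq (GRCm38.p6) start regions, each 250 bases before to 50 after the start, were found for 6 of the 8 genes. Of these, 4 are printed here from 5′ to 3′ on the + strand: Hmgcs1 (chr13:119690101-119690400) and Srebf2 (chr15:82147019-82147318) for their sterol regulatory element core, Insig1 (chr5:28071162-28071461) for its E-box, and Idi1 (chr13:8885356-8885655) as the gene whose level differed most. Capitals mark the core TCACNCCA, the CCAAT box and the E-box CACGTG on either strand, so that ATTGG is a CCAAT box on the opposite strand.
Hmgcs1: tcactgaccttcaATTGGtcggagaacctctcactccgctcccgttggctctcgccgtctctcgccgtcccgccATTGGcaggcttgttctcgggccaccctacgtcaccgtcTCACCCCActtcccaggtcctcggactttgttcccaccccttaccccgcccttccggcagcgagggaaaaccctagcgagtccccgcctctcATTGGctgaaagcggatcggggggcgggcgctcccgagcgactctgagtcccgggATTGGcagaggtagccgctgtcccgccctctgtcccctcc
Srebf2: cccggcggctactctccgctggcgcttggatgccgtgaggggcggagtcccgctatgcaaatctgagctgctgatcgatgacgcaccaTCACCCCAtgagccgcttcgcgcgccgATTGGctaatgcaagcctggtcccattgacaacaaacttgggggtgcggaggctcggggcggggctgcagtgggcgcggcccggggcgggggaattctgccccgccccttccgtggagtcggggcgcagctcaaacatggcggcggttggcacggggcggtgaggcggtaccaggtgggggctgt
Insig1: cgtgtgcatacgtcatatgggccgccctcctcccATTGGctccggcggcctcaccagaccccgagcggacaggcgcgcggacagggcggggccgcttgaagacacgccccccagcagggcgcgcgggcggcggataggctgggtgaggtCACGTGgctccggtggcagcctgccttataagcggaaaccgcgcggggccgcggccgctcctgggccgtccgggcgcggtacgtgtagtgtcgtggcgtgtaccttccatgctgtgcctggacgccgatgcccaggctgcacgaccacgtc
Idi1: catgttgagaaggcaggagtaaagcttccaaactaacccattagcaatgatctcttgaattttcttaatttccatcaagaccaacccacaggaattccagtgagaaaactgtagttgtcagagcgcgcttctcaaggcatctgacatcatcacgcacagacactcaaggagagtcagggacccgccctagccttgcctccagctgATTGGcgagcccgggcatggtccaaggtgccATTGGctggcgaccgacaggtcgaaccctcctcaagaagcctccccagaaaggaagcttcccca
The letters TCACNCCA occurred in the Hmgcs1 and Srebf2 windows, once in each, as TCACCCCA at bases 114 to 121 and 89 to 96, and in 4.36% of all 32851 start regions. Hmgcs1 held 4 CCAAT boxes, Idi1 held 2, and Srebf2 and Insig1 held 1 each, where 37.4% of all start regions held any. The E-box of Insig1 was at bases 150 to 155, and this motif occurred in 7.15% of all start regions. The window of Cyp46a1 (chr12:108334066-108334365, + strand) held 1 CCAAT box and 6 GC boxes (GGGCGG, found in 35.7% of start regions), and no core. Letters that match a motif are a description of the sequence and not evidence of binding.

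Levels of different genes can be set side by side only per length of transcript. On that scale, CPM per kilobase of merged exons, Hmgcs1 stood highest in WT at 67.7 ± 5.65 (SD, n = 5). Cyp46a1 followed at 61.4 ± 8.41, Srebf2 at 27.4 ± 5.73, Insig1 at 21.5 ± 2.71 and Fdft1 at 20.4 ± 7.02, all in CPM per kilobase in WT (SD, n = 5). Sqle had 11.9 ± 1.23, Idi1 6.60 ± 2.98 and Dhcr7 4.26 ± 0.853 CPM per kilobase in WT (SD, n = 5). The neighbours Hmgcs1 and Cyp46a1, Srebf2 and Insig1, Insig1 and Fdft1, and Idi1 and Dhcr7 had means ± SD that overlapped, while those of the other neighbours in this order did not. The order of the means was the same in PS19 and in CgA-KO/PS19.

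In the comparison of PS19 with WT, none of the 8 genes passed the test. The count past a false discovery rate of 0.05 was 0 of 8 by edgeR's quasi-likelihood test, 0 by DESeq2 and 0 by limma voom, and 0 of 8 had an unadjusted p under 0.05 by edgeR. Over all 23062 genes tested, 5.9% passed the same test and 20.9% had an unadjusted p under 0.05. The libraries of PS19 and WT overlapped for each of the 8, where 9.52% of all genes had libraries that did not. The median log2 fold change of the 8 was -0.10 and that of all genes 0.01, and the median size of the change was 0.15 against 0.18 for genes of at least 10 CPM. The genes that precede cholesterol in the pathway had estimates below 0 and the regulators Srebf2 and Insig1 had estimates above it, with intervals that spanned 0 for each gene.

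In the comparison of CgA-KO/PS19 with PS19, the count past the same threshold was again 0 of 8 by edgeR, against 9.72% of all genes. By edgeR 2 of the 8, Idi1 and Fdft1, had an unadjusted p under 0.05, where 27.8% of all genes did, and both estimates were higher in CgA-KO/PS19. DESeq2 and limma voom each called 1 gene, Idi1. No gene of the 8 had libraries that did not overlap, where 6.63% of all genes did. The median log2 fold change was 0.02 over the 8 and 0.03 over all genes.

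In the comparison of CgA-KO/PS19 with WT, the count was 0 of 8 by edgeR and by DESeq2, and 1 (Cyp46a1) by limma voom, against 6.46% of all genes by edgeR. By edgeR 3 of 8 had an unadjusted p under 0.05, where 21.7% of all genes did: Insig1 was higher and Sqle and Cyp46a1 lower in CgA-KO/PS19. Libraries did not overlap for 1 gene, Insig1, and for 3.6% of all genes. The 3 comparisons share libraries, so their values are not independent of each other.

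**Figure D1:**
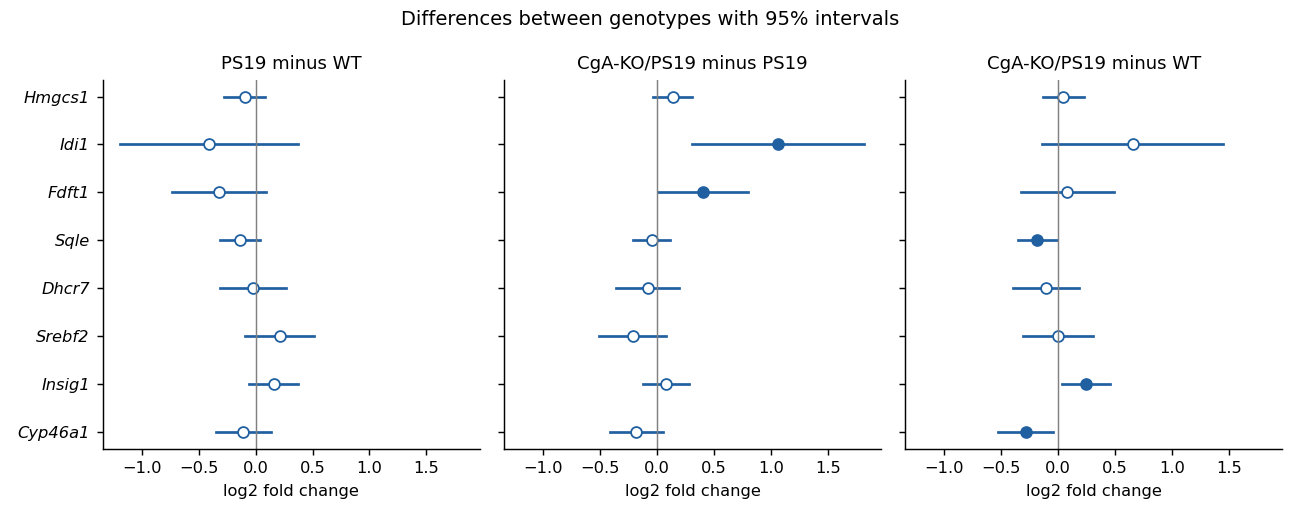
Log2 fold change of each gene in the 3 comparisons (x axis) with its 95% interval from edgeR, genes in pathway order, with filled points where the interval leaves out 0. The interval of Idi1 is the widest in each panel, and the intervals that leave out 0 belong to Idi1 and Fdft1 in the middle panel and to Sqle, Insig1 and Cyp46a1 in the right one.

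Hmgcs1 (ENSMUSG00000093930, chromosome 13 from 119690379 to 119708260 of GRCm38) makes HMG-CoA from acetyl-CoA units in the cytosol. Its level was 314, 287, 291, 352 and 311 CPM in WT replicates 1 to 5. In PS19 it ran from 267 to 332 CPM with a median of 282 CPM, and in CgA-KO/PS19 from 299 to 360 CPM with a median of 312 CPM. The 3 ranges shared the stretch from 299 to 332 CPM, and the SD within a genotype was 7.01% to 8.80% of its mean. The log2 fold change was -0.10 for PS19 against WT (95% interval -0.28 to 0.08) and 0.14 for CgA-KO/PS19 against PS19 (-0.03 to 0.31), with adjusted p-values of 0.566 and 0.274 (edgeR). As folds, these intervals were 0.826 to 1.06 and 0.978 to 1.24.

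Idi1 (ENSMUSG00000058258, chromosome 13 from 8885501 to 8892451) turns isopentenyl diphosphate into its isomer, which makes the building block of longer isoprenoids. In WT replicates 1 to 5 it was 29.7, 32.2, 10.8, 30.2 and 12.8 CPM. In PS19 it ran from 8.82 to 27.9 CPM with a median of 16.6 CPM, and in CgA-KO/PS19 from 14.3 to 47.9 CPM with a median of 37.9 CPM. In each genotype the libraries fell into high and low ones: WT 3 and 5, PS19 2, 3 and 6, and CgA-KO/PS19 3 were low. In CgA-KO/PS19, 5 of 6 libraries were above every PS19 and WT library, and replicate 3 was within the range of both.

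The mean of Idi1 was 36.3 ± 11.9 CPM in CgA-KO/PS19 and 17.4 ± 8.52 CPM in PS19 (SD, n = 6 each). Its log2 fold change between them was 1.07, a 2.09-fold difference (95% interval 1.24 to 3.53), with an adjusted p of 0.0656 by edgeR, which misses the threshold. Without CgA-KO/PS19 replicate 3 it was 1.24 with an adjusted p of 0.0414 (edgeR), past the threshold. Against WT the log2 fold change of CgA-KO/PS19 was 0.66 (-0.14 to 1.45, adjusted p = 0.337, edgeR), and that of PS19 against WT was -0.41 (-1.19 to 0.38, adjusted p = 0.574, edgeR).

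Library depth moved with Idi1. After each genotype's mean was subtracted, log2 Idi1 and the log10 total count had a Pearson r of -0.754 over 17 libraries (permutation p within genotype 0.00017, adjusted 0.00136 over 8 genes) and a Spearman rho of -0.804 (adjusted p = 0.00272, permutation test). Pearson's r was -0.835 without WT replicates 1 and 4, the 2 libraries farthest from the median depth. It was -0.941 within the libraries above 1 CPM of Ddx3y and -0.781 within the rest. The low Idi1 libraries had total counts of 99510400 to 227651681, and the median depth was highest in PS19. With the total count as a covariate, the log2 fold change of Idi1 was 0.66 for CgA-KO/PS19 against PS19 (adjusted p = 0.135, edgeR). It turned to 0.24 for PS19 against WT (adjusted p = 0.773, edgeR). For CgA-KO/PS19 against WT it rose from 0.66 to 0.90 with this covariate (adjusted p = 0.0505, edgeR). The relation of the other 7 genes to depth did not pass the adjustment. Srebf2 was the next strongest, with an r of 0.664 (adjusted p = 0.0876, permutation test). Fdft1 followed with -0.612 and Dhcr7 with 0.602 (adjusted p = 0.0991 for each, permutation test). Without the same 2 libraries r was 0.454 for Srebf2, -0.298 for Fdft1 and 0.241 for Dhcr7. Idi1-ps1, a pseudogene of Idi1 counted as a gene of its own, had 4.63 to 8.67 CPM in WT, 4.52 to 4.89 CPM in PS19 and 4.56 to 10.3 CPM in CgA-KO/PS19. Unlike Idi1, it passed the threshold for CgA-KO/PS19 against PS19, with a log2 fold change of 0.73 (adjusted p = 0.0207, edgeR). It did not pass for CgA-KO/PS19 against WT (adjusted p = 0.14) or PS19 against WT (0.522, edgeR). A share of reads between the pair cannot be told apart from these counts.

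**Figure D2:**
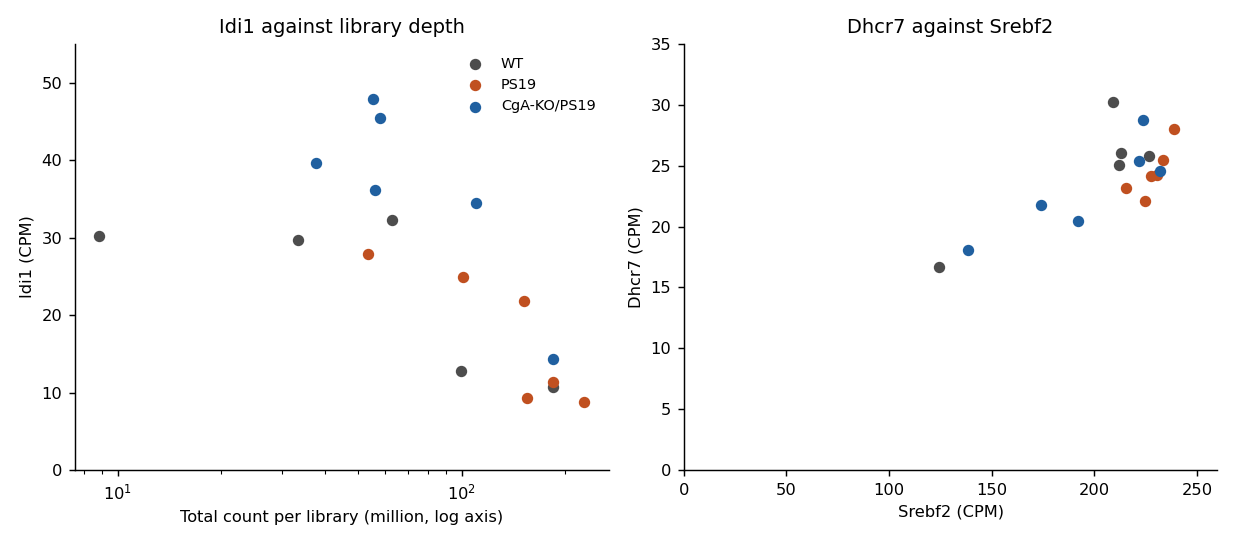
Left, Idi1 in CPM against the total count of its library on a log axis, and right, Dhcr7 against Srebf2, both in CPM, with 1 point per library coloured by genotype. Idi1 is 8.82 to 14.3 CPM in 5 of the 6 deepest libraries and 21.8 CPM in the other, and the lowest points at the right are WT replicate 4 and CgA-KO/PS19 replicate 6.

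Fdft1 (ENSMUSG00000021273, chromosome 14 from 63145150 to 63179578), squalene synthase, makes the first intermediate that is committed to sterols. It overlaps Ctsb on the other strand, and whether the counting used the strand is not given in the sources used here. Its level was 123, 73.3, 58.1, 114 and 64.1 CPM in WT replicates 1 to 5, so that WT replicates 1 and 4 stood well above the others. In PS19 it ran from 54.6 to 89.8 CPM with a median of 68.2 CPM, and in CgA-KO/PS19 from 72.5 to 114 CPM with a median of 89.3 CPM. The ranges overlapped. By edgeR the log2 fold change was 0.40 for CgA-KO/PS19 against PS19 (0.01 to 0.80, adjusted p = 0.167, edgeR), -0.32 for PS19 against WT (-0.73 to 0.09, adjusted p = 0.368, edgeR) and 0.08 for CgA-KO/PS19 against WT (adjusted p = 0.861, edgeR).

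Sqle (ENSMUSG00000022351, chromosome 15 from 59315077 to 59331192), squalene epoxidase, adds the first oxygen on the sterol branch. It was 73.9, 69.8, 61.7, 56.8 and 68.7 CPM in WT replicates 1 to 5, 57.5 to 68.0 CPM in PS19 (median 58.4 CPM) and 54.6 to 63.3 CPM in CgA-KO/PS19 (median 58.4 CPM). WT replicates 1, 2 and 5 were above every PS19 and CgA-KO/PS19 library, and the other 2 were not. From WT, the log2 fold change was -0.14 in PS19 (adjusted p = 0.368) and -0.18 in CgA-KO/PS19 (-0.35 to -0.01, adjusted p = 0.205, edgeR). Between CgA-KO/PS19 and PS19 it was -0.05 (-0.21 to 0.12).

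Dhcr7 (ENSMUSG00000058454, chromosome 7 from 143823145 to 143848410) carries out the last reduction that yields cholesterol. It was 25.8, 25.1, 26.1, 16.7 and 30.2 CPM in WT replicates 1 to 5, 22.1 to 28.1 CPM in PS19 and 18.0 to 28.7 CPM in CgA-KO/PS19. WT replicate 4 and CgA-KO/PS19 replicate 6 were lowest, and the genotypes overlapped throughout. Its log2 fold changes were -0.02, -0.08 and -0.10 in the 3 comparisons, with adjusted p-values of 0.729 to 0.958 (edgeR) and 95% intervals that reached from -0.39 to 0.27 at their ends.

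Srebf2 (ENSMUSG00000022463, chromosome 15 from 82147181 to 82205379) encodes SREBP2, the transcription factor of the pathway. It overlaps the microRNA gene Mir33. Its level was 227, 212, 213, 124 and 209 CPM in WT replicates 1 to 5, with replicate 4, the shallowest library, far below the rest. In PS19 the libraries lay between 215 and 239 CPM with a median of 229 CPM, and in CgA-KO/PS19 between 138 and 232 CPM with a median of 207 CPM. CgA-KO/PS19 replicates 2, 5 and 6 were below every PS19 library, and the other 3 overlapped with them. Between PS19 and WT the log2 fold change was 0.21 (-0.09 to 0.52, adjusted p = 0.432, edgeR), -0.21 for CgA-KO/PS19 against PS19 (-0.50 to 0.08, adjusted p = 0.327, edgeR) and 0.00 for CgA-KO/PS19 against WT (-0.31 to 0.30, adjusted p = 0.998, edgeR).

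Insig1 (ENSMUSG00000045294, chromosome 5 from 28071363 to 28078662) encodes the protein of the endoplasmic reticulum that retains the SREBP complex and is itself induced by SREBP. It was 75.0, 70.1, 69.0, 65.4 and 52.8 CPM in WT replicates 1 to 5, and 61.3 to 88.9 CPM in PS19 with a median of 70.9 CPM. In CgA-KO/PS19 it held to a narrow band of 75.8 to 81.5 CPM with a median of 78.7 CPM. All 6 CgA-KO/PS19 libraries lay above the highest WT library, and PS19 spanned both. The SD of Insig1 was 2.33% of its mean in CgA-KO/PS19, where the median over 9876 genes of at least 10 CPM was 19.2%. Only 0.0506% of these genes had a smaller value there. For Insig1 it was 12.6% in WT and 13.5% in PS19, where the medians over the same genes were 16.5% and 7.88%. For CgA-KO/PS19 the log2 fold change was 0.24 against WT (0.03 to 0.46, adjusted p = 0.167, edgeR), which misses the threshold, and against PS19 it was 0.08 (-0.12 to 0.29, adjusted p = 0.602, edgeR).

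Cyp46a1 (ENSMUSG00000021259, chromosome 12 from 108334381 to 108362234) encodes cholesterol 24-hydroxylase, the neuronal enzyme of cholesterol removal. It lies 5.77 megabases from the deleted Chga. It was 219, 205, 206, 155 and 225 CPM in WT replicates 1 to 5 and 181 to 199 CPM in PS19 with a median of 186 CPM. In CgA-KO/PS19 it ran from 135 to 204 CPM with a median of 153 CPM. CgA-KO/PS19 replicates 1, 2, 3 and 6 were below every PS19 library, while replicates 4 and 5 were above every one.

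The log2 fold change of Cyp46a1 in CgA-KO/PS19 was -0.18 against PS19 (-0.41 to 0.05, adjusted p = 0.305, edgeR) and -0.29 against WT (-0.53 to -0.04, adjusted p = 0.156, edgeR), neither past the threshold. Without WT replicate 4 the second was -0.37 with an adjusted p of 0.0428 (edgeR). Among the libraries above 1 CPM of Ddx3y, Cyp46a1 was lower in CgA-KO/PS19 than in PS19 by a log2 fold change of -0.36 (adjusted p = 0.0115) and than in WT by -0.50 (adjusted p = 0.00425, edgeR), and among the rest the values were -0.02 and -0.04. The difference between these library sets was not past the threshold (interaction adjusted p = 0.232 and 0.202, edgeR). CgA-KO/PS19 replicates 1 to 3, which carry the first values, also had the raised oligodendrocyte markers and the largest mitochondrial share, 13.8% to 18.2% of counts against 2.56% to 10.9% elsewhere. Their striatum markers summed to 426 to 1806 CPM, against 197 to 224 CPM in replicates 4 to 6. Their neuron markers summed to 5822 to 9101 CPM, against 9998 to 14700 CPM in replicates 4 to 6 and 6505 to 12151 CPM in WT. The relation of Cyp46a1 to the neuron marker level was not tested. With the oligodendrocyte marker level as a covariate the log2 fold change of Cyp46a1 was -0.15 against PS19 (adjusted p = 0.517, edgeR). In bulk tissue, fewer cells of a type and less RNA per cell cannot be told apart.

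**Figure D3:**
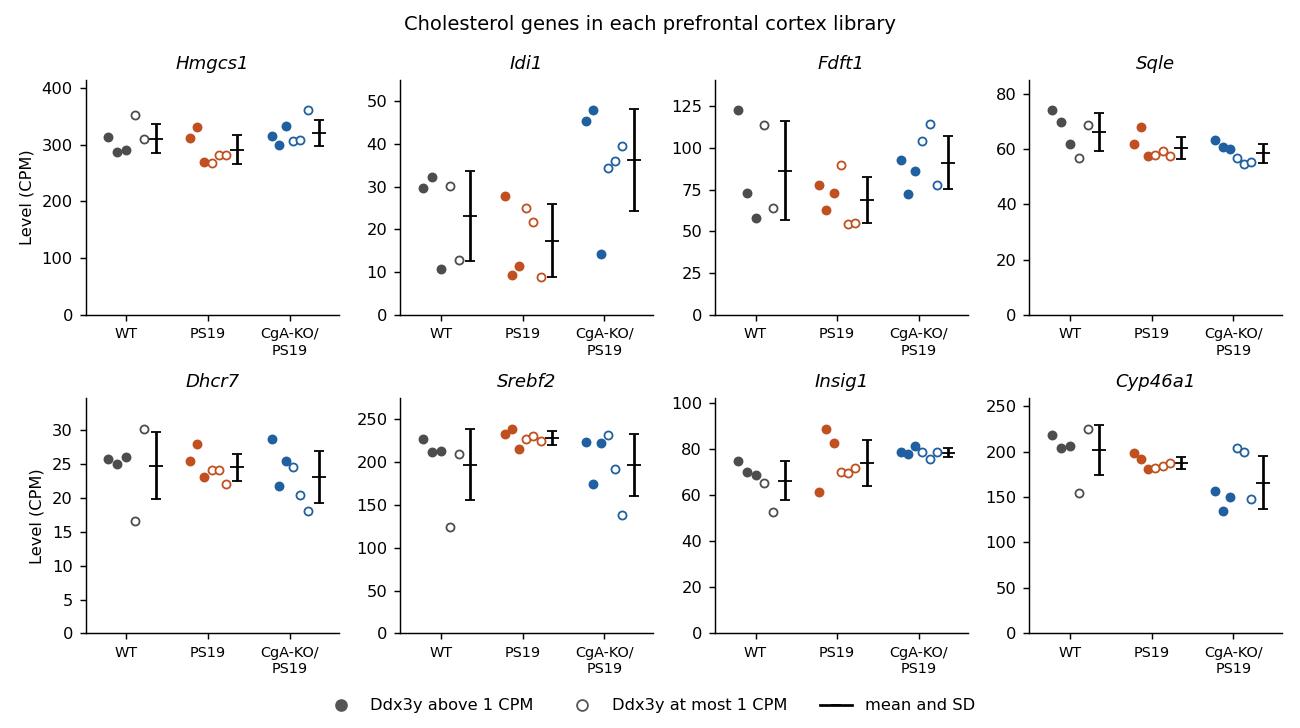
Level in CPM of each gene (panels) in every library, by genotype on the x axis, filled where Ddx3y was above 1 CPM, with the mean and SD beside the points. Insig1 keeps to 75.8 to 81.5 CPM in CgA-KO/PS19, Idi1 splits into high and low libraries in each genotype, and Srebf2 is 124 CPM in WT replicate 4.

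The members did not vary together as a set within genotypes. Of 28 pairs, 15 had a positive Pearson r between the deviations from the genotype means, the median r was 0.02 and the range -0.47 to 0.88. After adjustment over the 28 pairs, 2 passed by permutation within genotypes. Dhcr7 and Srebf2, the last enzyme and the regulator, had an r of 0.883 over 17 libraries (raw p = 0.00131, adjusted p = 0.0204) and a rho of 0.846 (raw p = 0.00103, adjusted p = 0.0288, permutation tests). Without WT replicate 4 and CgA-KO/PS19 replicate 6, the libraries farthest from the median, r was 0.611, and within the libraries above and below 1 CPM of Ddx3y it was 0.870 and 0.935. Both genes also had a positive r with library depth, 0.602 for Dhcr7 and 0.664 for Srebf2, neither past the adjustment. Whether depth links the pair was not tested. Sqle and Dhcr7 had an r of 0.756 (raw p = 0.00146, adjusted p = 0.0204) and a rho of 0.723 (raw p = 0.0024, adjusted p = 0.0336, permutation tests over 17 libraries). Their r was 0.827 without WT replicates 1 and 2, 0.606 without WT replicate 4, and 0.458 and 0.939 within the 2 sets by Ddx3y. PS19 replicates 4 to 6 are nearly alike, so the 17 libraries are not fully independent and these p-values are then too small.

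An enzyme score was the mean deviation of Hmgcs1, Idi1, Fdft1, Sqle and Dhcr7 in each of the 17 libraries. The deviations were not scaled, so genes with a wide spread weigh most in it. They ran from -1.19 to 0.80 for Idi1 and -0.50 to 0.57 for Fdft1, but only from -0.12 to 0.19 for Hmgcs1. The genes closest to this score by Pearson r were sought among 11799 genes of at least 5 CPM. The first were Pigc (r = 0.81), Rbak (0.80), Hs3st1 (0.78), Wars2 (0.77) and Zfp7 (0.77), followed by Bcl2l1, Rnf26, Atrip and Rab23 (0.73 each) and Dusp3 (0.72). Each of these 10 also had a negative r with library depth, from -0.33 to -0.68. No other gene of the pathway was among them, and the closest, Msmo1, was at rank 227 with an r of 0.48. Idi1 and Fdft1 had the widest spread of the 5 enzymes in WT and PS19.

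Beside the 8 genes, 51 others were listed for the pathway: 6 mevalonate enzymes, 10 sterol enzymes, 11 genes of SREBP control and uptake, 14 of sterol turnover and export and 10 of fatty acid synthesis. All 51 were tested. For PS19 against WT 1 fell, a sterol enzyme, where 5.9% of all genes tested were called. An unadjusted p under 0.05 by edgeR was found for 7 of the 51, against 20.9% of all genes, with 3 called by DESeq2 and 6 by limma voom. For CgA-KO/PS19 against PS19, 3 rose and 3 fell, where 9.72% of all genes were called. The 3 that rose were 2 sterol enzymes and 1 fatty acid gene, and a gene of SREBP control and an exporter were among those that fell. An unadjusted p under 0.05 by edgeR was found for 21 of the 51, 9 higher and 12 lower, against 27.8% of all genes. For CgA-KO/PS19 against WT, 2 fatty acid genes rose and 1 gene of SREBP control fell, where 6.46% of all genes were called. Here 15 of the 51 had an unadjusted p under 0.05 by edgeR, 8 higher and 7 lower, against 21.7% of all genes. The median log2 fold change of the 51 was 0.14, -0.05 and 0.00 in these comparisons, against 0.01, 0.03 and 0.01 over all genes.

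Msmo1, a methylsterol oxidase between lanosterol and cholesterol, was the enzyme that differed in both comparisons with PS19. It was 76.5, 83.1, 48.4, 68.1 and 83.6 CPM in WT replicates 1 to 5, 38.2 to 68.7 CPM in PS19 (median 45.3 CPM) and 54.4 to 90.4 CPM in CgA-KO/PS19 (median 71.9 CPM). In PS19 every library but replicate 1 was at or below 49.2 CPM, and WT replicate 3 was in that range. Its log2 fold change was -0.58 for PS19 against WT (standard error 0.16, adjusted p = 0.0435) and 0.58 for CgA-KO/PS19 against PS19 (standard error 0.16, adjusted p = 0.0285, edgeR). The first passed in 7 of 17 fits that each left out 1 library and was lost without WT replicate 1, 2, 4 or 5, without any of PS19 replicates 2 to 6, or without CgA-KO/PS19 replicate 5, with an adjusted p of up to 0.132. The second passed in 11 of 17 and was lost without any of PS19 replicates 2 to 6 or without CgA-KO/PS19 replicate 2, with an adjusted p of up to 0.0750. Both calls were lost with some covariates. For PS19 against WT the adjusted p was 0.155 with the striatum marker level and 0.171 with the total count. In the comparison of CgA-KO/PS19 with PS19 it was 0.0674 with the striatum marker level, 0.129 with the oligodendrocyte marker level and 0.0603 with the total count (edgeR). With near-identical libraries averaged the adjusted p was 0.204 for PS19 against WT and 0.176 for CgA-KO/PS19 against PS19 (edgeR).

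Cyp51, the lanosterol demethylase that precedes Msmo1, had 59.6 to 81.4 CPM in WT, 63.4 to 68.2 CPM in PS19 and 67.0 to 107 CPM in CgA-KO/PS19. CgA-KO/PS19 replicate 1 was inside the narrow PS19 range and the other 5 were above it. Its log2 fold change from PS19 was 0.40 (adjusted p = 0.0354, edgeR), which passed in 8 of 17 fits and was lost without any PS19 library or without CgA-KO/PS19 replicate 2, 5 or 6. With the total count as a covariate it was 0.30 (adjusted p = 0.0882, edgeR). With near-identical libraries averaged it was 0.47 (adjusted p = 0.107, edgeR).

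Rnf145, a ubiquitin ligase of the sterol-sensing system in the endoplasmic reticulum, was the pathway gene whose call held in both comparisons of CgA-KO/PS19 under each library left out. It was 110 to 122 CPM in WT, 104 to 123 CPM in PS19 and 61.8 to 99.1 CPM in CgA-KO/PS19, with no overlap between CgA-KO/PS19 and either other genotype. In CgA-KO/PS19 the log2 fold change was -0.44 against PS19 (adjusted p = 0.0115) and -0.52 against WT (adjusted p = 0.00671, edgeR). It was -0.37 against PS19 with the oligodendrocyte marker level as a covariate (adjusted p = 0.0738, edgeR). The call against PS19 was also lost with near-identical libraries averaged (adjusted p = 0.0953) and with the replicate number as a block (0.0505, edgeR). Among the libraries above 1 CPM of Ddx3y the value against PS19 was -0.66 (adjusted p = 0.00224, edgeR). Among the rest it was -0.24 (adjusted p = 0.367, edgeR). Of 33 alternatives, the call against PS19 passed in 29 and that against WT in 31. Abcg4, a sterol exporter of neurons and astrocytes, was 34.2 to 64.6 CPM in WT, 56.3 to 62.8 CPM in PS19 and 31.1 to 56.5 CPM in CgA-KO/PS19. The PS19 and CgA-KO/PS19 ranges overlapped only through CgA-KO/PS19 replicate 4, and the log2 fold change was -0.55 (adjusted p = 0.0344, edgeR). It passed in 7 of 17 fits, and was lost without any PS19 library or without CgA-KO/PS19 replicate 1, 2, 3 or 6. The call was also lost with the oligodendrocyte marker level (adjusted p = 0.136), the striatum marker level (0.113) or the total count (0.0767, edgeR) as a covariate. With near-identical libraries averaged the adjusted p was 0.189 (edgeR).

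The fatty acid desaturases Scd1 and Fads1 are SREBP targets outside sterol synthesis. Scd1 was 92.5 to 132 CPM in WT and 117 to 177 CPM in PS19. In CgA-KO/PS19 replicates 1 to 6 it was 442, 460, 446, 152, 165 and 158 CPM. Replicates 1 to 3 of CgA-KO/PS19 were thus far above every other library, and replicates 4 to 6 were inside the PS19 range. In CgA-KO/PS19 it was 2.83-fold higher than in WT (95% interval 1.85 to 4.34, adjusted p = 0.00667) and 1.90-fold higher than in PS19 (1.28 to 2.82, adjusted p = 0.0390, edgeR). The first held under each library left out, and the second passed in 8 of 17 fits and was lost without any PS19 library or without CgA-KO/PS19 replicate 1, 2 or 3.

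With the oligodendrocyte marker level as a covariate the log2 fold change of Scd1 against PS19 was 0.25 (adjusted p = 0.635) and with the striatum marker level 0.26 (adjusted p = 0.471, edgeR), and CgA-KO/PS19 replicates 1 to 3 were the libraries with raised oligodendrocyte markers. Fads1 was 99.1 to 163 CPM in WT, 153 to 213 CPM in PS19, 291 to 347 CPM in CgA-KO/PS19 replicates 1 to 3 and 160 to 174 CPM in replicates 4 to 6. Its log2 fold change against WT was 0.86 (adjusted p = 0.0216, edgeR), which was lost without WT replicate 5 or CgA-KO/PS19 replicate 2. It was 0.41 with the oligodendrocyte marker level as a covariate (adjusted p = 0.334, edgeR).

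**Figure D4:**
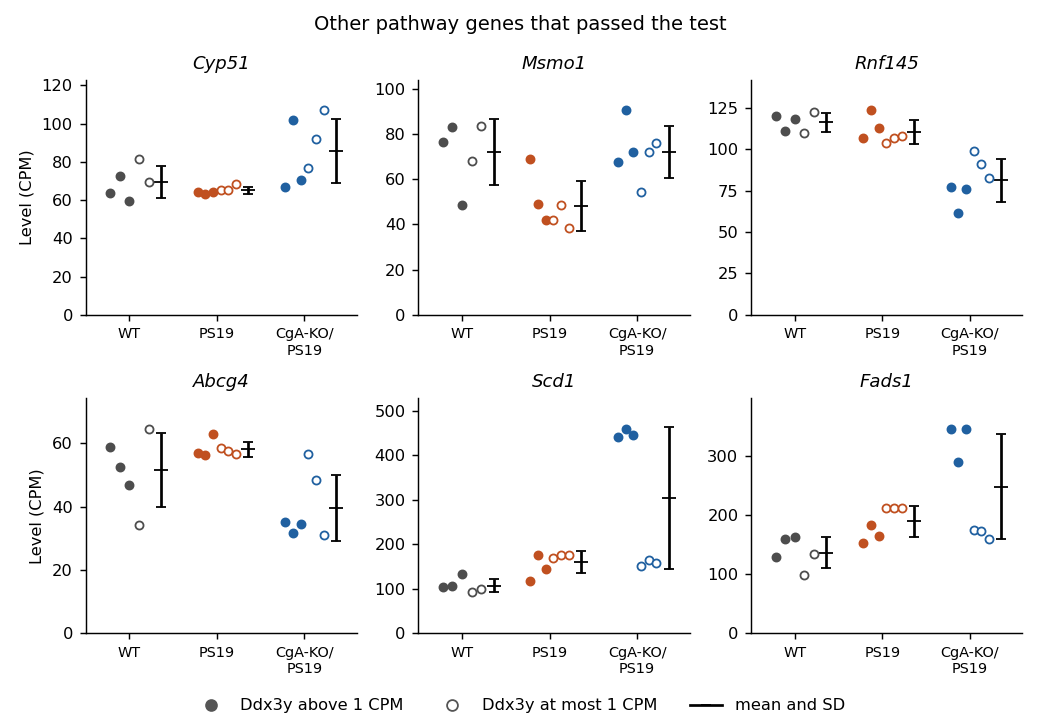
Level in CPM of 6 other pathway genes that passed the test in a comparison, in every library by genotype, filled where Ddx3y was above 1 CPM, with the mean and SD beside the points. Scd1 is 442 to 460 CPM in CgA-KO/PS19 replicates 1 to 3 and 152 to 165 CPM in replicates 4 to 6, and the CgA-KO/PS19 points of Rnf145 lie below all others.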

How the data were processed

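RNA of the prefrontal cortex was sequenced from 17 mice. Per the submitters' processing notes and the paper's methods, Trimmomatic 0.39 was used for trimming, STAR 2.7.10b for alignment to mm10 and StringTie 1.3.6 for quantification. The authors deposited whole-number counts per gene without normalization. StringTie derives such counts from coverage, so totals are not numbers of fragments, counting error is understated and the spread between libraries sets the tests. The annotation release and the use of strand are not given in the sources used here. Coordinates are those of GENCODE M21 (GRCm38).

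The members and lists were chosen with earlier results of these data known. Libraries were grouped by labelled genotype and are taken as separate mice. The counts were analysed with edgeR 4.0.16 in R 4.3.3: TMM normalization, filterByExpr by genotype, and a quasi-likelihood fit over all 17 libraries with 1 mean per genotype, with Benjamini-Hochberg adjustment over 23062 genes. Intervals are 95% from the quasi-likelihood standard error. CPM uses the TMM library sizes. Correlations used log2(CPM + 1), with 100000 two-sided permutations within genotype. On simulated counts, edgeR recovered 200 of 200 genes changed by a log2 fold change of 2 in PS19 against WT, with 3 false calls among 22889 genes. DESeq2 and limma voom also recovered 200 of 200, with 41 false calls among 22599 genes and 7 among 22889. Only well-counted genes were changed, every gene had the same relative spread, and the libraries were drawn independently. The simulation therefore gives neither the power for smaller differences nor the rate of false calls in the real libraries.

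The genes named are the 8 members, other listed genes past the threshold (at most 8 per comparison), the 10 genes closest to the enzyme score, and checks of genotype and marker lists. Idi1-ps1 and Ddx3y were added after values were seen. Alternatives were DESeq2 1.42.0 (also its size factors), limma 3.58.1 voom with quality weights, other count filters, only the 2 genotypes compared, a robust fit, the replicate number as a block, mitochondrial genes left out, near-identical libraries averaged, marker or Ddx3y covariates, and each library left out. The total count covariate, the split by Ddx3y and its interaction with genotype were added after seeing the data. Figures were drawn with matplotlib 3.10.9, and correlations computed with numpy 2.4.6 and scipy 1.17.1 in Python 3.11.15. Values of some listed genes are not reported here.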

Additional observations from a re-analysis of the deposited data

Results flagged for a closer look

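Srebf2 in WT replicate 4 was 124 CPM and stood apart from the other 4 WT libraries at 209 to 227 CPM. This library had the fewest counts of all. Msmo1 in PS19 replicate 1 was 68.7 CPM, above the other 5 at 38.2 to 49.2 CPM. Abcg4 in PS19 replicate 3 was 62.8 CPM, above the other 5 at 56.3 to 58.5 CPM. Each of these gaps was large for its group by Dixon's test, and 45 groups were tested, of which chance marks about 1 in 20.

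The difference between CgA-KO/PS19 and PS19 was not the same in the libraries above 1 CPM of Ddx3y and in the rest for Scd1 and Fads1 (interaction in one edgeR fit over all genes). For Scd1 the log2 fold change was 1.62 in the first set and -0.13 in the second, a difference of 1.75 (adjusted p = 0.000275). For Fads1 it was 0.97 and -0.33, a difference of 1.29 (adjusted p = 0.00086, edgeR). Against WT, Scd1 had 1.97 and 0.72, a difference of 1.25 (adjusted p = 0.00385, edgeR). This interaction passed for 11.7% of all genes in the comparison with PS19 and for 5.47% in that with WT. It passed for 0 of the 8 cholesterol genes in each of the 3 comparisons (edgeR), with 1 unadjusted p under 0.05, that of Cyp46a1 for CgA-KO/PS19 against WT (0.0378). The raised oligodendrocyte markers and mitochondrial share of CgA-KO/PS19 replicates 1 to 3 fall in the first set and cannot be told apart from it.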

How the results depend on the processing

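Of 792 values of the 8 genes under the alternatives, 746 kept their direction and their side of the threshold. For CgA-KO/PS19 against PS19 the count called was 0, and it was 1 with DESeq2, with at least 10 counts in every library and with limma voom (Idi1 in each), and 1 among the libraries above 1 CPM of Ddx3y (Cyp46a1). For CgA-KO/PS19 against WT it was 0, and 1 with limma voom and among the libraries above 1 CPM of Ddx3y (Cyp46a1 in each). With each library left out in turn the counts ran from 0 to 1 in both (1 without CgA-KO/PS19 replicate 3 and without WT replicate 4), and stayed at 0 for PS19 against WT.

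The counts of other pathway genes moved more. For PS19 against WT, 1 in the report, the count was 3 with DESeq2, with at least 10 counts in every library and with the oligodendrocyte covariate, 5 with only the 2 genotypes, 6 with limma voom, 13 with the striatum covariate, 2 with the Ddx3y covariate, 4 among libraries at most 1 CPM of Ddx3y, and 0 without a filter, with near-identical libraries averaged and among libraries above 1 CPM of Ddx3y. For CgA-KO/PS19 against PS19, 6 in the report, it was 18 with limma voom and above 1 CPM of Ddx3y, 3 with the striatum or the total count covariate, 2 without a filter, 1 with the oligodendrocyte covariate, and 0 at most 1 CPM of Ddx3y and with averaged libraries. For CgA-KO/PS19 against WT, 3 in the report, it was 6 with DESeq2 and with limma voom, 12 with the striatum covariate, 14 above 1 CPM of Ddx3y and 0 with only the 2 genotypes. Leaving out 1 library gave 0 to 3, 1 to 12 and 2 to 6. Scd1 turned to -0.15 for CgA-KO/PS19 against PS19 at most 1 CPM of Ddx3y. The cause of these moves was not tested.

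Replicate numbers did not pair the libraries: same-numbered libraries of different genotypes had correlations of -0.23 to 0.44 in 16 pairs (median -0.04), 2 of them over 0.1. With the replicate number as a block, 0 of the 8 genes were called in each comparison, and of the other pathway genes 0 for PS19 against WT and 1 for CgA-KO/PS19 against PS19.

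Depth limits WT replicate 4 most, with a total count of 8838334. The sex of each library is not labelled. Striatum marker sums moved with genotype and also differed between libraries within WT and within CgA-KO/PS19. In a comparison of genotypes, the genotype and the dissection cannot be told apart.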
